A study of Hyacinthus orientalis with 189 samples.

Results

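The unigenes described here were those annotated to the glucosylation of flavonols in the hyacinth perianth. They were all unigenes whose KEGG Orthology (KO) description named a flavonol but not a dihydroflavonol and whose KO number was not that of flavanone 3-hydroxylase, anthocyanidin synthase or dihydroflavonol reductase. The choice used annotation words only and no expression value. It gave 15 of 494326 unigenes, namely 4 flavonol 3-O-glucosyltransferase unigenes (K10757) and 11 flavonol-3-O-L-rhamnoside-7-O-glucosyltransferase unigenes (K22771). Flavonol synthase, the third enzyme that the rule could have found, was the KO of 0 unigenes, so nothing below concerns the synthesis of the flavonol itself.

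Flavonols such as kaempferol, quercetin and myricetin are pale yellow or colourless flavonoids that share their precursors with the anthocyanins. They are made from dihydroflavonols by flavonol synthase and are stored in the vacuole as glycosides. The 3-O-glucosyltransferase transfers glucose from UDP-glucose to the 3-hydroxyl group of the flavonol. The 7-O-glucosyltransferase, known from UGT73C6 of Arabidopsis, adds glucose at the 7 position of a flavonol that already carries rhamnose at the 3 position, and related members of the UGT73 group act on other small molecules.

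The study sampled Hyacinthus orientalis, an ornamental bulb, in 7 cultivars grown outdoors from imported Dutch bulbs: the red 'Jan Bos' (JB), the pink 'Pink Pearl' (PP), the orange 'Gipsy Queen' (GQ), the yellow 'City of Haarlem' (CH), the pinkish white 'China Pink' (CP), the blue 'Delft Blue' (DB) and the dark purple 'Peter Stuyvesant' (PS). 'China Pink' arose from 'Delft Blue' as a sport. Flowers were taken as green buds (Stage B), coloured buds (Stage C) and at full anthesis (Stage A). There were 3 flowers for each cultivar at each stage, and the outer lobes, the inner lobes and the perianth tube of each flower were sequenced separately after stamens and pistil had been removed. The flowers are labelled as biological replicates, but no source says whether they came from different bulbs, so p-values measure the spread between these flowers.

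The libraries, 63 per stage, held between 12602472 and 20175882 expected counts each. For stage and cultivar comparisons the 3 partitions of a flower were summed, and levels are given as CPM (counts scaled to a common library size) after TMM normalisation. A unigene was called a differentially expressed gene (DEG) at a Benjamini-Hochberg adjusted p below 0.05 over all unigenes tested together with an absolute log2 fold change above 1 in edgeR's quasi-likelihood test. The median log2 fold change of all 202252 unigenes tested was −0.23 for Stage C against Stage B, −0.02 for Stage A against Stage C and −0.27 for Stage A against Stage B. Scaling to the total counts instead moved these medians to −0.64, −0.14 and −0.80, since the TMM factors averaged 1.31 in Stage B flowers (1.11 to 1.58), 0.927 in Stage C flowers (0.830 to 1.13) and 0.832 in Stage A flowers (0.788 to 0.915). Of the DEGs between Stage C and Stage B, 34.3% were higher at Stage C with TMM and 14.5% with total counts. In whole perianth pieces, fewer cells of a type and less RNA per cell cannot be told apart.

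The tissue labels could be checked only weakly. The marker words for the B-class floral identity genes, which specify petal-like organs, found 3 unigenes, of which 2 matched only through the species name Malassezia globosa. The remaining unigene, Cluster-20417.253620 with the Swiss-Prot name GLOBOSA, averaged 0.422 FPKM (fragments per length of the unigene and library size). The 86 unigenes of the green tissue list summed to a median of 85310 FPKM in outer lobes at Stage B, 3168 FPKM at Stage C and 985.5 FPKM at Stage A, so the buds labelled green were highest. The part of this change in the stage results below was not tested.

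The 2 enzymes stood at very different levels. The 4 flavonol 3-O-glucosyltransferase unigenes received 492500 counts over all libraries, and the 11 rhamnoside-7-O-glucosyltransferase unigenes 38590, which is 7.27% of the counts of the members. Per library, the summed level of the 3-O-glucosyltransferases averaged 566 ± 220 FPKM in green buds, 673 ± 344 FPKM in coloured buds and 462 ± 284 FPKM in open flowers (SD, n = 63 libraries from 21 flowers each). In flower sums the same enzyme averaged 113.3 ± 56.5, 270.2 ± 167.2 and 190.5 ± 140.2 CPM at these stages (SD, 21 flowers each). Open flowers were thus below green buds in FPKM and above them in CPM. The CPM values carry the TMM factors, which averaged higher in green buds than in open flowers, and the FPKM values do not. The 7-O-glucosyltransferases averaged 5.24 ± 2.13, 5.93 ± 4.51 and 24.8 ± 36.4 FPKM at the same stages. The spread at Stage A exceeded the mean, because single flowers carried most of the signal, as described below. A mean of at least 1 FPKM was reached by 8 of the 15 members, and 14 of the 15 had enough counts to be tested over flowers. The untested member, Cluster-20417.321851 (413 bp), received 8 counts in 2 libraries of 'Peter Stuyvesant'.

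All 4 flavonol 3-O-glucosyltransferase unigenes had the same best protein hit, a UDP-glucose:flavonoid 3-O-glucosyltransferase of the grape hyacinth Muscari armeniacum, and the Swiss-Prot name of UGT77B2, a myricetin 3-O-rhamnosyltransferase of Crocosmia. They were short pieces: 876 bp for Cluster-20417.241471, 339 bp for Cluster-20417.217938 and 325 bp for Cluster-20417.228010, with Cluster-20417.245091 between the first 2 of these. Altogether 13 unigenes shared this Muscari hit, and 8 of the others carried the KO anthocyanidin 3-O-glucosyltransferase instead. The summed mean level of those 8 was 497.7 FPKM, against 567 FPKM for the 4 members. In counts the order was reversed, at 1055000 for those 8 against 492500 for the 4 members. The same hit stood beside both KO names, and reads shared between such near pieces could have been split among them by the counting.

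Length also limits how these pieces can be compared. The length that the FPKM values imply, recovered by dividing counts by FPKM, was 34.8 to 84.4 bases for the 325-bp unigene and 558.7 to 632.4 bases for the 876-bp unigene. Cluster-20417.228010 thereby averaged 161.5 FPKM from 22400 counts, while Cluster-20417.241471 averaged 247.3 FPKM from 390500 counts. Cluster-20417.245091 averaged 145.9 FPKM and Cluster-20417.217938 averaged 12.3 FPKM. In flower sums the 876-bp unigene held between 45.7% and 89.97% of the enzyme's normalised counts, with a median of 78.4%.

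The 11 rhamnoside-7-O-glucosyltransferase unigenes had Swiss-Prot names from the UGT73 group in 10 cases, and the untested unigene was named a scopoletin glucosyltransferase of tobacco. The highest was Cluster-20417.92239 (1473 bp, mean 5.79 FPKM), followed by Cluster-20417.165368 (2062 bp, 2.35 FPKM), Cluster-20417.208624 (993 bp, 1.29 FPKM) and Cluster-20417.208623 (915 bp, 1.10 FPKM). The remaining 7 averaged below 1 FPKM. Some carried a domain of an unrelated protein next to, or in place of, the glycosyltransferase domain: PRONE in Cluster-20417.208623, MatE in Cluster-20417.172464, S-adenosylmethionine decarboxylase in the 4931-bp Cluster-20417.265537, and, in the other enzyme, a PEP-utilising domain in Cluster-20417.241471. Counts of such unigenes may include reads of another gene.

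From green to coloured buds, the main flavonol 3-O-glucosyltransferase piece was upregulated while the low-level piece of the same enzyme fell. Of the 14 members tested for Stage C against Stage B, 3 were higher and 2 lower, against a background of 22.5% of all unigenes called (7.70% higher and 14.8% lower). The average over 7 cultivars could not be evaluated for 4 of the 14 members, which had 0 counts in at least 1 cultivar and stage. The median log2 fold change was 0.20 over all 14 members and 0.31 over the 10 that could be evaluated, against −0.23 over all unigenes.

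Cluster-20417.241471 ranged from 23.4 to 173.5 CPM at Stage B (median 81.0), from 55.5 to 586.9 CPM at Stage C (median 178.2) and from 12.2 to 442.1 CPM at Stage A (median 128.3; 21 flowers each). The ranges of the 3 stages overlapped, as the cultivars stood at different levels. Averaged over cultivars it was upregulated at Stage C by 1.57 on the log2 scale (SE 0.17, adjusted p = 2.9e-11). It was lower at Stage A than at Stage C by a log2 fold change of −0.70 (SE 0.17, adjusted p = 8.5e-04), which did not reach the fold threshold.

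Within 6 of 7 cultivars, each Stage C flower had more Cluster-20417.241471 than any Stage B flower. 'Pink Pearl' had 586.9, 468.6 and 558.8 CPM at Stage C, against 91.0, 86.6 and 77.9 CPM at Stage B. 'Delft Blue' had 191.7, 147.5 and 178.2 CPM at Stage C, against 25.4, 23.4 and 29.9 CPM at Stage B. These were the steepest changes, with log2 fold changes of 2.66 (SE 0.46, adjusted p = 1.6e-05) and 2.72 (SE 0.47, adjusted p = 7.4e-06). In 'Gipsy Queen' the groups overlapped, at 131.8, 275.1 and 325.4 CPM at Stage C against 81.0, 149.7 and 89.6 CPM at Stage B.

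The difference was positive in all 7 cultivars, from 0.91 in 'Jan Bos' to 2.72, and 5 of them were called. The calls in 'China Pink' (1.20, adjusted p = 0.034), 'Gipsy Queen' (1.19, adjusted p = 0.044) and 'City of Haarlem' (1.18, adjusted p = 0.044) were near the threshold. The call was lost in 'Gipsy Queen' without replicate 3 (0.81) and in 'China Pink' without replicate 1 (0.77) or replicate 3 (1.24). In 'City of Haarlem' it was lost whichever of the 3 was left out (0.98 to 1.32). Over 10 alternative fits, the call held in only 4 for 'Gipsy Queen', 4 for 'China Pink' and 2 for 'City of Haarlem'. It held in all 10 for 'Pink Pearl' and for 'Delft Blue'.

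At full anthesis this unigene fell only in the related pair of cultivars by the same threshold. 'China Pink' had 12.2, 73.8 and 19.2 CPM at Stage A, against 160.6, 55.5 and 105.1 CPM at Stage C. 'Delft Blue' had 17.0, 73.1 and 48.3 CPM at Stage A, against 191.7, 147.5 and 178.2 CPM at Stage C. The groups overlapped in 'China Pink' but not in 'Delft Blue'. The log2 fold change was −1.61 in 'China Pink' (SE 0.45, adjusted p = 0.021) and −1.90 in 'Delft Blue' (SE 0.45, adjusted p = 2.8e-03). Both calls were lost without replicate 1 (−0.79 and −1.42) and without replicate 3 (−1.39 and −1.97), and the value in 'China Pink' was −3.08 without replicate 2. In the other 5 cultivars the change lay between −0.66 and 0.23.

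**Figure D1:**
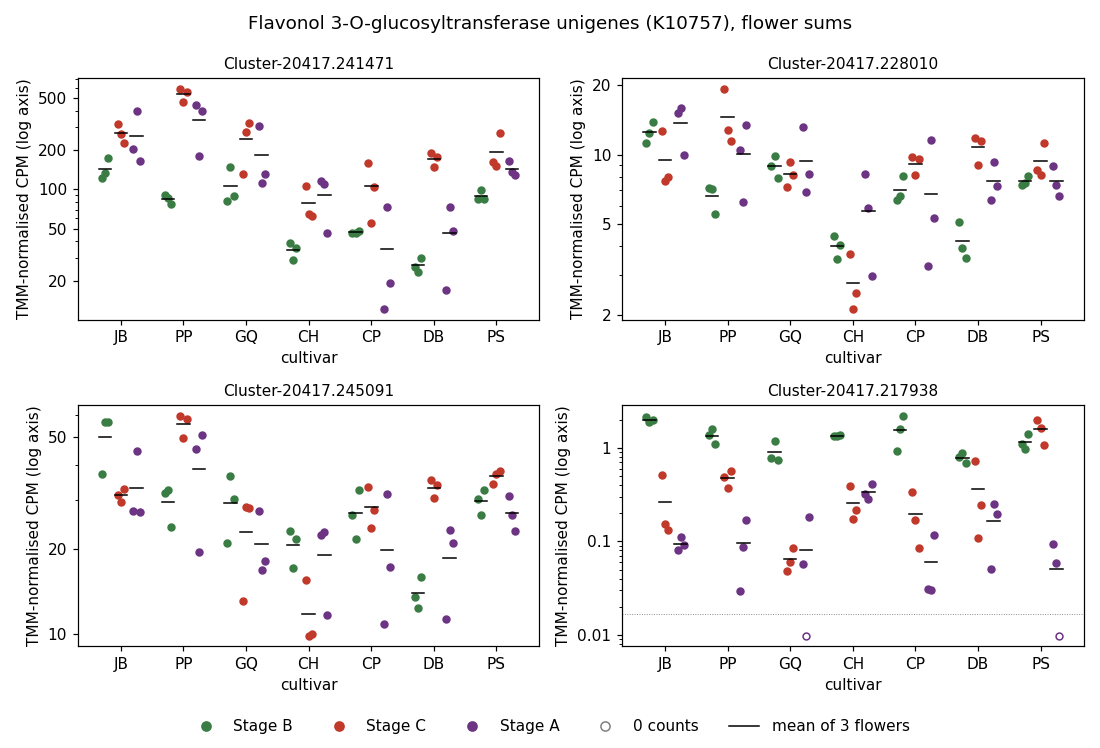
TMM-normalised CPM of the 4 flavonol 3-O-glucosyltransferase unigenes in each of 63 flowers, by cultivar and stage, on log axes, with bars at the mean of 3 flowers and open points below the dotted line for flowers with 0 counts. Cluster-20417.241471 reached 586.9 CPM in 'Pink Pearl' at Stage C, and Cluster-20417.217938 stayed high at Stage C in 'Peter Stuyvesant' alone.

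Cluster-20417.228010 and Cluster-20417.245091, the other abundant pieces of the enzyme, changed little on average. Cluster-20417.228010 had a median of 7.18 CPM at Stage B (3.52 to 13.9), 9.02 CPM at Stage C (2.14 to 19.2) and 8.19 CPM at Stage A (2.96 to 15.9). Cluster-20417.245091 had medians of 26.6, 31.2 and 23.3 CPM at the 3 stages. Their average changes from Stage B to Stage C were 0.30 (SE 0.11, adjusted p = 0.026) and 0.10 (SE 0.11, adjusted p = 0.68). The direction depended on the measure: the log2 ratio of stage means was 0.34 and 0.13 in normalised counts, and −0.24 and −0.35 in FPKM. Normalised counts carry the TMM factors, which averaged higher at Stage B than at Stage C, and FPKM values do not.

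In the 2 cultivars where the main unigene changed most, Cluster-20417.228010 rose as well, and Cluster-20417.245091 rose in 1 of them. Cluster-20417.228010 had 11.8, 9.02 and 11.4 CPM at Stage C in 'Delft Blue', against 5.10, 3.93 and 3.55 CPM at Stage B (1.36, adjusted p = 4.1e-04). In 'Pink Pearl' it had 19.2, 12.8 and 11.5 CPM at Stage C, against 7.18, 7.11 and 5.50 CPM at Stage B (1.14, adjusted p = 3.7e-03, and 0.95 and not called without replicate 1). Neither pair of groups overlapped. Cluster-20417.245091 was called in 'Delft Blue' only (1.25, adjusted p = 1.3e-03), with 35.2, 30.6 and 33.8 CPM at Stage C against 13.6, 12.4 and 16.0 CPM at Stage B. In 'Pink Pearl' its change was 0.92 (SE 0.30, adjusted p = 0.022), short of the fold threshold. These 3 calls were lost under total count scaling (0.64 for Cluster-20417.228010 in 'Delft Blue', 0.68 in 'Pink Pearl' and 0.54 for Cluster-20417.245091).

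Cluster-20417.217938, the low-level piece, fell through development. It had a median of 1.34 CPM at Stage B (0.693 to 2.20), 0.247 CPM at Stage C (0.0483 to 2.00) and 0.0906 CPM at Stage A (0 to 0.409). The average change was −2.01 from Stage B to Stage C (SE 0.17, adjusted p = 4.8e-16) and −1.55 from Stage C to Stage A (SE 0.28, adjusted p = 7.8e-06). Without replicate 1 the change from Stage C to Stage A was −1.001 and without replicate 3 it was −2.09, and both remained DEGs. The fall from Stage B to Stage C was called in 6 cultivars, from −3.76 in 'Gipsy Queen' to −1.07 in 'Delft Blue'. The calls in 'Delft Blue' (−0.59 without replicate 2 and −0.93 without replicate 3) and 'Pink Pearl' (−1.22 without replicate 2, against −1.51) did not hold in each such fit.

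'Peter Stuyvesant' was the exception in timing. This cultivar had 2.00, 1.65 and 1.09 CPM of Cluster-20417.217938 at Stage C, against 1.11, 0.966 and 1.41 CPM at Stage B (0.44, SE 0.35, adjusted p = 0.50). At Stage A it had 0.0946, 0.0585 and 0 CPM, against the same Stage C flowers (−4.92, SE 0.60, adjusted p = 9.7e-09). The Stage C flowers of 'Peter Stuyvesant' thus overlapped with its Stage B flowers and not with its Stage A flowers. The missing call does not show that the level stayed the same from Stage B to Stage C. 'Pink Pearl' also fell from Stage C to Stage A (−2.27, adjusted p = 9.8e-03), with the call lost without replicate 1 (−1.83) or replicate 2 (−2.36). Over all unigenes too, 'Peter Stuyvesant' had the lowest share called for Stage C against Stage B (9.00%, against 14.0% to 26.4% elsewhere). It had the highest share for Stage A against Stage C (15.8%, against 0.468% to 9.15% elsewhere). The paper also reports that coloured buds of this cultivar correlated more strongly with its green buds than with its open flowers.

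**Figure D2:**
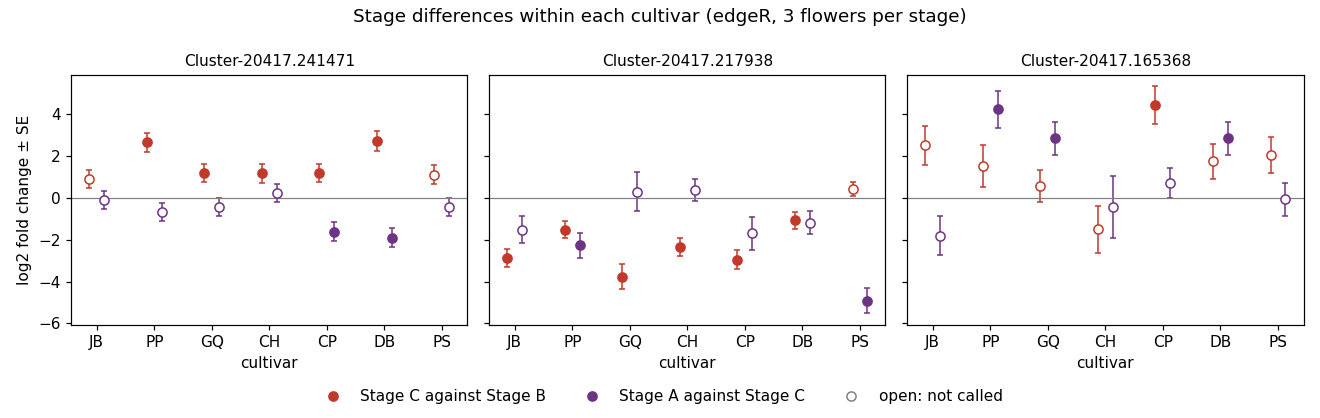
log2 fold change with its SE (edgeR, 3 flowers per stage) within each cultivar for Stage C against Stage B and Stage A against Stage C, with filled points for DEGs. Cluster-20417.241471 was higher at Stage C in all 7 cultivars (0.91 to 2.72), and Cluster-20417.217938 was lower in 6. Cluster-20417.165368 was called higher at Stage A in 3 cultivars, but in 'Gipsy Queen' this rested on replicate 2 (75.8 CPM).

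Among the rhamnoside-7-O-glucosyltransferases, the most abundant unigene was detected mainly at full anthesis, and at very different levels from flower to flower. Cluster-20417.92239 had 0 counts in 11 of 21 flowers at Stage B and 14 of 21 at Stage C, with medians of 0 CPM, and a median of 4.32 CPM at Stage A (0 to 182.5). At Stage A the 3 flowers had 182.5, 11.1 and 23.7 CPM in 'China Pink', 58.1, 18.3 and 4.32 CPM in 'Delft Blue' and 3.25, 95.9 and 6.08 CPM in 'Pink Pearl'. In 'Gipsy Queen' they had 0, 82.7 and 10.5 CPM, and in 'Jan Bos' 25.2, 0.253 and 0.0604 CPM. So the level differed by more than 10-fold between flowers of 1 cultivar and stage. 'Peter Stuyvesant' stayed at 0.0315, 0.117 and 0.115 CPM, and 'City of Haarlem' had 0 counts in its 3 flowers, which allows up to 0.0276 CPM.

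Of the 14 members tested for Stage A against Stage C, 1 was higher and 1 lower, against a background of 11.0% of all unigenes called (6.64% higher and 4.38% lower). The median log2 fold change was 0.03 over the 14 members, −0.24 over the 9 that could be evaluated and −0.10 over the 14 in limma-trend, against −0.02 over all unigenes in edgeR and −0.03 in limma-trend, so its sign depended on the members and the tool. Cluster-20417.92239 was among the 5 that edgeR could not average. With limma-trend, which works on log2 CPM, it averaged 4.82 higher at Stage A than at Stage C (SE 0.60, adjusted p = 6.4e-09). The change at Stage C against Stage B was 0.14 (SE 0.60, adjusted p = 0.85). Both SEs rest on a common spread over all groups, although 14 of 21 Stage C flowers had 0 counts. They therefore do not measure the spread between Stage A flowers. The average also covers 'City of Haarlem' and 'Peter Stuyvesant', which stayed at or near 0 CPM at Stage A.

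Within cultivars, edgeR called Cluster-20417.92239 higher at Stage A than at Stage C in 5 of 7. The ratio of summed levels, from 941 counts at Stage A against 2 at Stage C, was 530 in 'Jan Bos' (95% counting interval 146 to 4382, adjusted p = 5.4e-03). From 3598 counts against 1 it was 4197 in 'Pink Pearl' (753 to 165800, adjusted p = 1.8e-04), and from 3079 against 2 it was 1633 in 'Delft Blue' (452 to 13490, adjusted p = 2.7e-04). It was at least 1122-fold higher in 'Gipsy Queen', where Stage C had 0 counts and the floor was 3 counts over the group (adjusted p = 1.0e-03). These intervals are exact binomial and cover counting error only, not the spread between flowers. Single flowers carried these ratios. Leaving out the Stage A flower with the most counts gave 9.53 in 'Jan Bos' (without replicate 1), 566 in 'Pink Pearl' (without replicate 2), 664 in 'Delft Blue' (without replicate 1) and at least 187-fold in 'Gipsy Queen' (without replicate 2).

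In 'China Pink' Cluster-20417.92239 was clearly present in 1 Stage C flower. That flower had 12.8 CPM at Stage C, against 0 and 0.0569 CPM in the other two, so the summed 454 counts at Stage C against 2 at Stage B (370-fold, counting interval 102 to 3061, adjusted p = 1.7e-03) came almost wholly from it. Without replicate 2 that call was lost, at a log2 fold change of 3.38. From Stage C to Stage A the change was 4.08 in 'China Pink' (SE 1.20, adjusted p = 0.028), lost without replicate 1 (1.44) or replicate 3 (3.90) and 11.8 without replicate 2. The calls in 'Jan Bos' were lost without replicate 1 (2.48) or replicate 3 (8.80), and those in 'Gipsy Queen' without replicate 2 (10.8) or replicate 3 (13.9).

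Cluster-20417.165368, the second of this enzyme, was higher at Stage C than at Stage B on average, and changed unevenly across cultivars after that. It had a median of 0.484 CPM at Stage B (0.158 to 2.97), 2.20 CPM at Stage C (0.136 to 21.4) and 2.74 CPM at Stage A (0.102 to 75.8). The average change was 1.63 from Stage B to Stage C (SE 0.36, adjusted p = 1.8e-04), and 1.19 from Stage C to Stage A (SE 0.37, adjusted p = 0.011). The second was lost when any of the replicates was left out (1.08, 0.75 and 1.30 without replicates 1, 2 and 3) and in limma-trend (0.85). Within cultivars the change from Stage B to Stage C was positive in 6 of 7 and called only in 'China Pink', and in 'City of Haarlem' it was −1.49 (adjusted p = 0.38). From Stage C to Stage A it was positive in 4 cultivars and negative in 3.

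At Stage A the 3 flowers had 17.2, 15.3 and 12.2 CPM of Cluster-20417.165368 in 'China Pink' and 25.9, 10.6 and 10.9 CPM in 'Delft Blue'. They had 2.48, 37.1 and 7.21 CPM in 'Pink Pearl' and 1.69, 75.8 and 2.74 CPM in 'Gipsy Queen'. The rise over Stage C was called in 'Pink Pearl' (4.24, adjusted p = 7.3e-04, 2.65 without replicate 2), in 'Delft Blue' (2.86, adjusted p = 0.012) and in 'Gipsy Queen' (2.85, adjusted p = 0.021). The value of 'Gipsy Queen' rested on 1 flower: without replicate 2 it was −0.70. The call in 'Delft Blue' was lost without replicate 1 (2.10) or replicate 3 (3.00). In 'China Pink' the unigene was already up at Stage C, with 3.32, 21.4 and 2.59 CPM against 0.202, 0.554 and 0.484 CPM at Stage B (4.44, adjusted p = 1.0e-04, 3.11 without replicate 2). 'Jan Bos' had 1.00, 0.141 and 0.543 CPM at Stage A, against 1.68, 1.66 and 2.61 CPM at Stage C, with no overlap (−1.80, adjusted p = 0.30). The change to Stage A was −0.44 in 'City of Haarlem' (adjusted p = 1) and −0.07 in 'Peter Stuyvesant' (adjusted p = 1).

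The flowers with the most of both unigenes were partly the same. The 4 Stage A flowers with the most Cluster-20417.92239 were replicate 1 of 'China Pink', replicate 2 of 'Pink Pearl', replicate 2 of 'Gipsy Queen' and replicate 1 of 'Delft Blue', and they ranked 4, 2, 1 and 3 of 21 for Cluster-20417.165368. The next, replicate 1 of 'Jan Bos' with 25.2 CPM of Cluster-20417.92239, ranked 16 for Cluster-20417.165368 with 1.00 CPM. Replicate 2 of 'Gipsy Queen' was also the highest Stage A flower for the rare Cluster-20417.176931 (0.391 CPM) and Cluster-20417.226051 (0.481 CPM). 'City of Haarlem' held the lowest level of Cluster-20417.165368 at Stage A, with 0.116, 0.258 and 0.102 CPM, and none of Cluster-20417.92239.

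**Figure D3:**
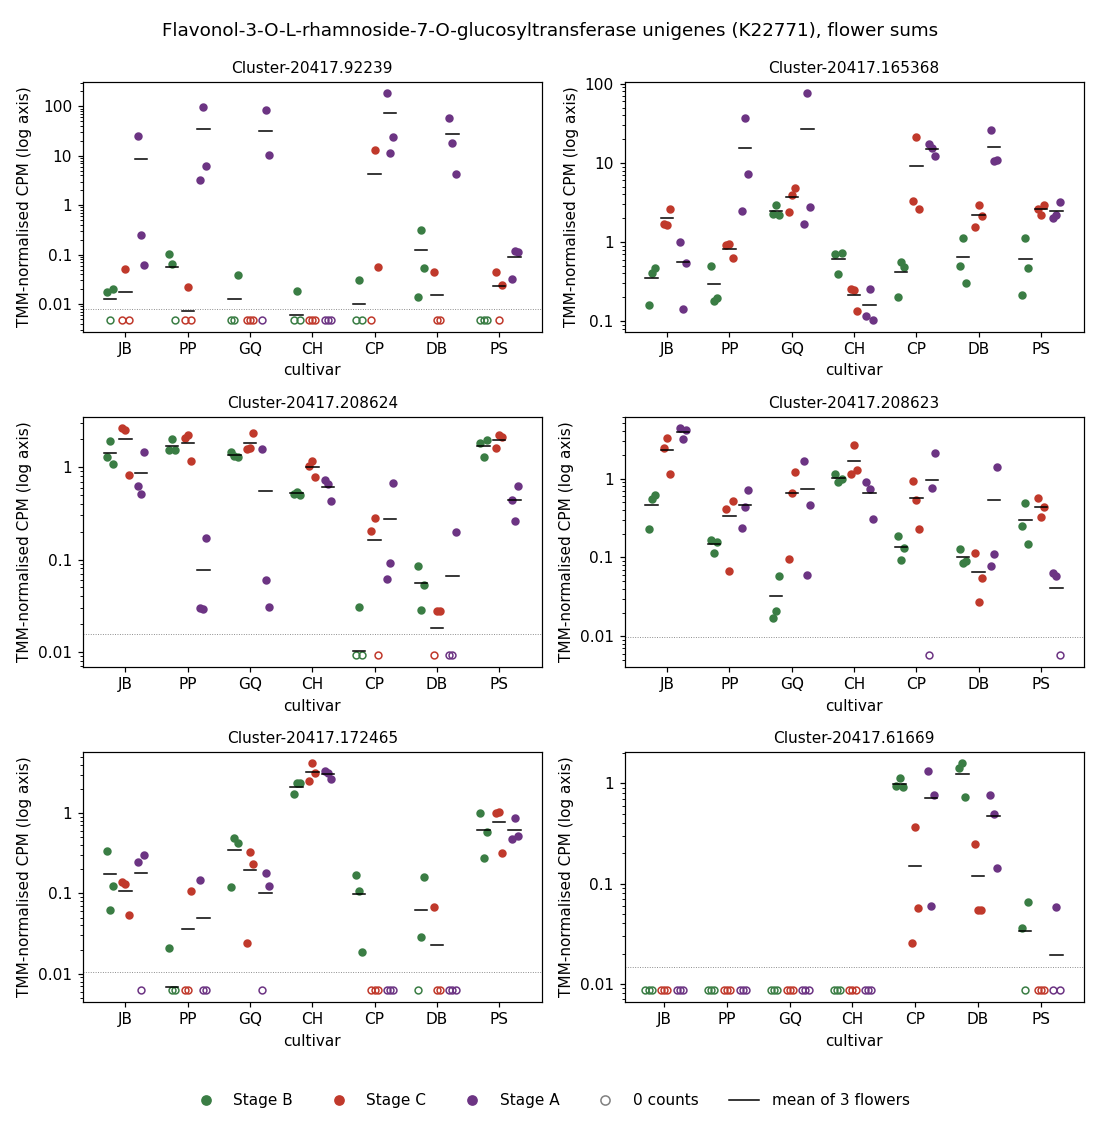
TMM-normalised CPM of 6 flavonol-3-O-L-rhamnoside-7-O-glucosyltransferase unigenes in each of 63 flowers, by cultivar and stage, on log axes, with bars at the mean of 3 flowers and open points below the dotted line for flowers with 0 counts. At Stage A Cluster-20417.92239 reached 182.5 CPM in 'China Pink' and was at 0 counts in 'City of Haarlem'. Cluster-20417.172465 was highest in 'City of Haarlem', and Cluster-20417.61669 was at 0 counts in 4 cultivars.

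Cluster-20417.208623 and Cluster-20417.208624, 2 further unigenes of this enzyme, share the hit to UGT73D1. Cluster-20417.208623 had medians of 0.158, 0.539 and 0.457 CPM at Stages B, C and A, and was higher at Stage C than at Stage B by 1.50 (SE 0.39, adjusted p = 1.0e-03). In 'Jan Bos', where it was most abundant, it had 2.43, 3.29 and 1.15 CPM at Stage C against 0.228, 0.552 and 0.619 CPM at Stage B, with no overlap (2.31, adjusted p = 7.0e-03, and 2.10 and not called without replicate 2). In 'Gipsy Queen' the change was 4.21 (adjusted p = 2.8e-03), lost without replicate 2 (3.99) or replicate 3 (4.04). In 'Peter Stuyvesant' it fell at Stage A, to 0.0631, 0.0585 and 0 CPM against 0.562, 0.326 and 0.435 CPM at Stage C (−3.38, adjusted p = 0.045), and that call was lost whichever flower was left out (−3.93 to −2.81).

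Cluster-20417.208624 fell at full anthesis in 2 of the 5 cultivars where it averaged above 0.7 CPM. 'Pink Pearl' had 0.0295, 0.0293 and 0.170 CPM at Stage A, against 2.06, 2.26 and 1.16 CPM at Stage C (−4.52, SE 0.78, adjusted p = 5.3e-05). 'Peter Stuyvesant' had 0.441, 0.263 and 0.631 CPM at Stage A, against 1.62, 2.22 and 2.15 CPM at Stage C (−2.15, SE 0.58, adjusted p = 4.7e-03, and −1.79 and not called without replicate 2). The groups did not overlap in either cultivar. The changes in 'Jan Bos' (−1.22, adjusted p = 0.19), 'Gipsy Queen' (−1.70, adjusted p = 0.064) and 'City of Haarlem' (−0.73, adjusted p = 0.81) were not called. In 'Gipsy Queen' 1 flower at Stage A had 1.575 CPM, within the 1.571 to 2.35 CPM of Stage C. Averaged over cultivars the change was −1.12 (SE 0.52, adjusted p = 0.12). A rise from Stage B to Stage C in 'China Pink' was called at 3.57 (adjusted p = 0.044), from 18 counts at Stage C against 2 at Stage B (14.7-fold, counting interval 3.51 to 130.2). It was lost with the replicate block (also 3.57), without replicate 1 (2.88) and without replicate 2 (5.26), and held in only 3 of 10 alternative fits.

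Cluster-20417.172464, which also holds a MatE domain, fell from green to coloured buds. Its median was 0.286 CPM at Stage B (0.0358 to 1.38), 0.104 CPM at Stage C and 0.0631 CPM at Stage A. The average change to Stage C was −1.81 (SE 0.26, adjusted p = 9.3e-09), with the largest in 'City of Haarlem', which had 0.0230, 0.0246 and 0.109 CPM at Stage C against 0.984, 0.671 and 1.38 CPM at Stage B (−4.27, adjusted p = 1.8e-07). It was negative in 7 of 7 cultivars and called in 4. The call was lost in 'Gipsy Queen' without replicate 3 (−1.19) and in 'China Pink' without replicate 1 (−0.88) or replicate 2 (−1.60). In 'Delft Blue' it was lost whichever of the 3 was left out (−1.78 to −1.51). Over 10 alternative fits, the call held in 10 for 'City of Haarlem', 9 for 'Gipsy Queen', 6 for 'China Pink' and 5 for 'Delft Blue'.

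The remaining members were rare. Cluster-20417.265537 stayed between 0.144 and 1.46 CPM in every flower, with medians of 0.502, 0.620 and 0.703 CPM at Stages B, C and A. Cluster-20417.176931 and Cluster-20417.226051 gathered 114 and 102 of their counts in green buds, 6 and 4 in coloured buds and 16 and 23 in open flowers. Cluster-20417.176931 was at least 12.4-fold lower at Stage C than at Stage B in 'City of Haarlem', from 0 counts against 51 (adjusted p = 2.9e-03). Cluster-20417.226051 was at least 6.17-fold lower in 'Jan Bos', from 0 counts against 24 (adjusted p = 0.036), lost without replicate 1 or replicate 3. That call held in 5 of 9 alternative fits.

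Over the whole course, 4 of 14 members differed between Stage A and Stage B, 2 higher and 2 lower, against a background of 31.6% of all unigenes (13.5% higher and 18.0% lower). Cluster-20417.165368 was higher by 2.82 (SE 0.45, adjusted p = 3.6e-07) and Cluster-20417.208623 by 1.56 (SE 0.49, adjusted p = 6.5e-03). The call of Cluster-20417.208623 was lost without replicate 2 (1.66), in limma-trend (0.94) and under total count scaling (0.92). Cluster-20417.217938 was lower by a log2 fold change of −3.56 (SE 0.20, adjusted p = 1.7e-23) and Cluster-20417.172464 of −2.10 (SE 0.27, adjusted p = 4.1e-10). Cluster-20417.241471 ended 0.87 higher (SE 0.17, adjusted p = 1.4e-05), under the fold threshold. The median log2 fold change was −0.25 over the 14 members, 0.08 over the 10 that could be evaluated and −0.30 in limma-trend, against −0.27 over all unigenes in edgeR and −0.20 in limma-trend.

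Counted within each cultivar, 27 of 98 member contrasts were called for Stage C against Stage B, 13 higher and 14 lower, where 19.1% of all unigene contrasts were called. Of the 98, 5 could not be evaluated because of groups at 0 counts. By cultivar the members called were 3 in 'Jan Bos' (14.0% of all unigenes), 3 in 'Pink Pearl' (17.8%), 4 in 'Gipsy Queen' (19.0%), 4 in 'City of Haarlem' (21.1%), 7 in 'China Pink' (26.4%), 6 in 'Delft Blue' (26.4%) and 0 in 'Peter Stuyvesant' (9.00%). For Stage A against Stage C, 15 of 98 were called, 8 higher and 7 lower, where 6.75% of all were called, and 11 could not be evaluated. They were 1 in 'Jan Bos' (4.98% of all unigenes), 4 in 'Pink Pearl' (6.96%), 2 in 'Gipsy Queen' (5.06%), 0 in 'City of Haarlem' (0.468%), 2 in 'China Pink' (4.78%), 3 in 'Delft Blue' (9.15%) and 3 in 'Peter Stuyvesant' (15.8%). The total of 15 was 9 without replicate 1 and 8 without replicate 3 of each group. At an unadjusted p below 0.05 in edgeR there were 2 members in 'Peter Stuyvesant' for the first contrast and 3 in 'City of Haarlem' for the second.

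The stage course differed between cultivars for 8 of 14 members by the edgeR interaction test (adjusted p below 0.05), where 23.3% of all unigenes did. Without replicates 1, 2 and 3 of each group the number was 7, 5 and 3. The lowest adjusted p was that of Cluster-20417.217938 (9.8e-07), followed by Cluster-20417.165368 (1.1e-04). The values for the others are given in the closing section.

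Between cultivars the level of Cluster-20417.241471 was ordered as 'Pink Pearl' (321 ± 211 CPM), 'Jan Bos' (223 ± 89.8), 'Gipsy Queen' (178 ± 96.3), 'Peter Stuyvesant' (142 ± 56.7), 'Delft Blue' (81.6 ± 71.0), 'City of Haarlem' (67.9 ± 34.7) and 'China Pink' (62.95 ± 45.8; SD over 9 flowers of 3 stages). Of the neighbours in this order, only 'Delft Blue' against 'Peter Stuyvesant' was called (−1.19, SE 0.26, adjusted p = 1.4e-04). The other 5 neighbouring pairs had adjusted p-values from 0.30 to 0.92. Over all 21 pairs, 12 were called for this unigene. Over the 3 stages together, the yellow, pinkish white and blue cultivars formed the lower end, and the pink and red cultivars the upper end, with overlapping flowers. The lower end had the lowest means at each stage, but the upper end changed with stage. At Stage B 'Pink Pearl' (mean 85.2 CPM) lay below 'Jan Bos' (143.6), 'Gipsy Queen' (106.8) and 'Peter Stuyvesant' (89.5). At Stage C 'Delft Blue' (172.5) lay near 'Peter Stuyvesant' (193.8). A link with flower colour was not tested.

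All members together gave 89 of 294 calls over the 21 cultivar pairs, 52 higher and 37 lower in the first-named cultivar, against 30.1% of all unigene contrasts (0.315% to 37.5% by pair, with 34.2% for 'City of Haarlem', 30.3% for 'China Pink' and 28.1% for 'Delft Blue', each against 'Peter Stuyvesant'). Cluster-20417.172465 was called in 17 pairs and Cluster-20417.165368 in 13. Cluster-20417.208624 was called in 11 pairs and Cluster-20417.208623 and Cluster-20417.61669 in 10 each. Because of groups at 0 counts, 44 of the 294 contrasts could not be evaluated, so they could not be called. Cluster-20417.265537 was called in 0 of 21 pairs, Cluster-20417.92239 in 0 of the 18 that could be evaluated and Cluster-20417.226051 in 0 of 6. For Cluster-20417.92239 the SEs were wide, as in 'City of Haarlem' against 'China Pink' (−8.61, SE 4.86), with 1 count against 7552. Its missing calls do not show that the cultivars were alike.

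Of the rarer 7-O-glucosyltransferases, Cluster-20417.172465, Cluster-20417.61669 and Cluster-20417.208624 differed between many cultivar pairs, and Cluster-20417.61669 and Cluster-20417.208624 also changed between stages within single cultivars. Cluster-20417.172465 had 1.72 to 4.13 CPM in the 9 flowers of 'City of Haarlem' (mean 2.79 ± 0.699 SD) and 0.276 to 1.02 CPM in 'Peter Stuyvesant' (mean 0.672 ± 0.303). It did not exceed 0.485 CPM in any flower of the other 5 cultivars. The flowers of 'City of Haarlem' overlapped with no other cultivar, and the level there was 2.03 higher on the log2 scale than in 'Peter Stuyvesant' (SE 0.31, adjusted p = 1.3e-07).

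Cluster-20417.61669 was found almost only in the related pair. It had 266 counts over 9 flowers in 'China Pink' and 322 in 'Delft Blue', against 8 in 'Peter Stuyvesant' and 0 in 'Jan Bos', 'Pink Pearl', 'Gipsy Queen' and 'City of Haarlem'. With a floor of 3 counts over the 9 flowers, the level in 'China Pink' was at least 84.5-fold to 90.9-fold higher than in these 4 cultivars, and that in 'Delft Blue' at least 93.0-fold to 100.1-fold higher. Within the pair it fell in coloured buds. 'China Pink' had 0.0257, 0.369 and 0.0569 CPM at Stage C, against 0.943, 1.14 and 0.912 CPM at Stage B (−2.74, SE 0.74, adjusted p = 5.0e-03, with the call lost without replicate 1, at −2.26, or replicate 3, at −2.44, and −4.43 without replicate 2). 'Delft Blue' had 0.250, 0.0548 and 0.0549 CPM at Stage C, against 1.42, 1.58 and 0.729 CPM at Stage B (−3.28, SE 0.73, adjusted p = 8.9e-04). Neither pair of groups overlapped.

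Cluster-20417.208624 was low in the related pair. It averaged 0.150 ± 0.222 CPM in 'China Pink' and 0.0467 ± 0.0635 CPM in 'Delft Blue', against 0.709 to 1.43 CPM in the other 5 cultivars (means of 9 flowers). The 10 pairs that set 1 of these 2 cultivars against 1 of the other 5 included 'China Pink' against 'Peter Stuyvesant' at −3.72 (SE 0.48, adjusted p = 2.8e-09) and 'Delft Blue' against 'Peter Stuyvesant' at −4.75 (SE 0.52, adjusted p = 2.2e-11).

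Between the sport 'China Pink' and 'Delft Blue', 0 of 14 members were called by edgeR, DESeq2 or limma-trend, where 0.315% of all unigenes were called by edgeR. At an unadjusted p below 0.05 there was 1, Cluster-20417.208623, which was 1.43 higher in 'China Pink' (SE 0.55, adjusted p = 0.26). Cluster-20417.241471 differed by −0.08 (SE 0.25), Cluster-20417.228010 by 0.10 (SE 0.17) and Cluster-20417.245091 by 0.27 (SE 0.18). The missing calls do not show that the levels were equal.

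For the red 'Jan Bos' against the yellow 'City of Haarlem', a pair that the study itself singled out on these libraries, 4 of 14 members were called, against 33.0% of all unigenes (16.0% higher and 17.0% lower). The 3 abundant flavonol 3-O-glucosyltransferase pieces were higher in 'Jan Bos', by 1.78 for Cluster-20417.241471 (SE 0.26, adjusted p = 9.5e-08), 1.56 for Cluster-20417.228010 (SE 0.18, adjusted p = 1.9e-10) and 1.15 for Cluster-20417.245091 (SE 0.18, adjusted p = 3.0e-07). Cluster-20417.228010 ranged from 7.67 to 15.9 CPM in the 9 flowers of 'Jan Bos', against 2.14 to 8.24 CPM in those of 'City of Haarlem'. Cluster-20417.172465 was lower in 'Jan Bos' by −4.15 (SE 0.38, adjusted p = 7.6e-14). The median log2 fold change was 0.46 over the 14 members, 0.99 over the 11 that could be evaluated and 0.40 in limma-trend, against 0 over all unigenes.

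In the perianth tube the 2 shorter abundant pieces of the 3-O-glucosyltransferase were lower than in the lobes, and the longest was not. Cluster-20417.228010 had a median of 5.07 CPM in the tube at Stage B (1.72 to 11.04), against 7.81 CPM in outer and 8.63 CPM in inner lobes. At Stage C its medians were 6.18 CPM in the tube, against 10.2 and 10.5 CPM, and at Stage A 5.35 CPM in the tube, against 8.41 and 9.19 CPM. The tube lay below both lobe samples of the same flower in 17, 20 and 20 of 21 flowers at Stages B, C and A. The log2 fold changes were −0.72 (SE 0.09, adjusted p = 3.1e-08), −0.79 (SE 0.11, adjusted p = 5.8e-07) and −0.78 (SE 0.16, adjusted p = 2.0e-04), all short of the fold threshold.

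Cluster-20417.245091 behaved alike. Its tube medians were 22.4, 25.5 and 17.2 CPM at Stages B, C and A, against 30.9, 36.1 and 24.6 CPM in outer lobes. The tube was below both lobes in 18, 17 and 18 of 21 flowers, with log2 fold changes of −0.59 (adjusted p = 1.0e-07), −0.46 (adjusted p = 4.1e-04) and −0.68 (adjusted p = 6.1e-04). Cluster-20417.241471 had tube medians of 74.1, 183.6 and 138.4 CPM, against 68.3, 178.5 and 107.8 CPM in outer lobes. Its log2 fold changes were −0.05 (SE 0.07), −0.03 (SE 0.14) and 0.01 (SE 0.23), within the spread between flowers. The low-level Cluster-20417.217938 was also lower in the tube at Stage B (−0.52, SE 0.15, adjusted p = 0.012 in edgeR), short of the fold threshold. There its tube lay below both lobes in 14 of 21 flowers, but at Stage A, near 0 CPM, above both in 11 of 21. The 86 unigenes of the green tissue list also differed between partitions, with summed medians at Stage B of 33350 FPKM in the tube (15700 to 54100), against 85310 FPKM in outer and 77000 FPKM in inner lobes. The order turned at the later stages, with 5572 FPKM in the tube at Stage C against 3168 and 2698 FPKM, and 1909 FPKM at Stage A against 985.5 and 1003 FPKM. The part of this list in the tube results was not tested.

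**Figure D4:**
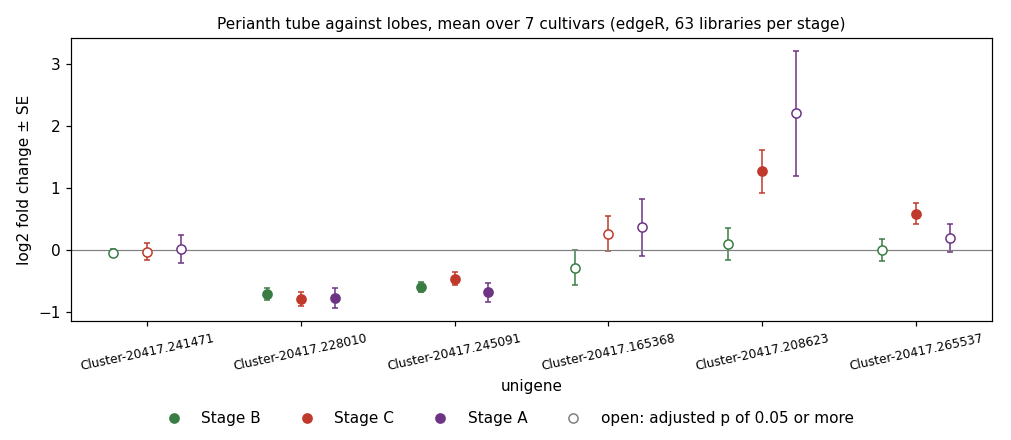
log2 fold change of the perianth tube against the mean of outer and inner lobes with its SE (edgeR, 63 libraries per stage) for 6 members, with filled points for an adjusted p below 0.05. Cluster-20417.228010 (−0.79 to −0.72) and Cluster-20417.245091 (−0.68 to −0.46) were lower in the tube at each stage, and Cluster-20417.241471 lay near 0.

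By the DEG rule, 0 of 11 members tested differed between tube and lobes at Stage B (0 also in DESeq2 and limma-trend, 4 at an unadjusted p below 0.05), where 2.89% of all unigenes did (1.60% higher and 1.28% lower). At Stage C 1 of 10 was called (background 4.33%, 2.94% higher and 1.39% lower), and at Stage A 1 of 10 (background 7.34%, 5.16% higher and 2.18% lower). Cluster-20417.208623 was higher in the tube at Stage C, at a median of 0.847 CPM against 0.246 CPM in outer and 0.386 CPM in inner lobes (1.27, SE 0.35, adjusted p = 5.9e-03), and exceeded both lobes in 13 of 21 flowers. The call was lost without replicate 1 (0.81) and in limma-trend (0.76).

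Cluster-20417.208624 was higher in the tube at Stage A, at a median of 0.459 CPM against 0 CPM in outer and 0.0925 CPM in inner lobes (2.13, SE 0.58, adjusted p = 4.2e-03), and exceeded both lobes in 12 of 21 flowers. That call was lost without replicate 1 (2.02) or replicate 3 (1.34) and in limma-trend (0.69). Summed markers of the removed organs were also higher in the tube: the 3 unigenes of the carpel list summed to a median of 39.6 FPKM in the tube at Stage A (7.28 to 104.9), against 1.76 FPKM in outer and 1.94 FPKM in inner lobes. Nearly all of this came from 1 unigene, Cluster-20417.104026 (mean 39.5 FPKM in the tube, against 0.135 and 0.152 FPKM). The 37 unigenes of the stamen and pollen list summed to 1358 FPKM in the tube (480.7 to 5042), against 755.5 and 749.4 FPKM in the lobes. They did not all go 1 way: Cluster-20417.266095 averaged 543.9 FPKM in the tube against 42.0 and 61.7 FPKM, and Cluster-20417.300844 averaged 194.7 against 284.8 and 223.1 FPKM. The tube sum lay below both lobes in replicate 1 of 'China Pink', replicates 1 and 2 of 'Delft Blue' and replicate 3 of 'Peter Stuyvesant', and above both in all other Stage A flowers. At Stage C the carpel sums were 18.8 FPKM in the tube, against 4.64 and 5.29 FPKM. Their part in the tube results was not tested.

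Outer and inner lobes gave 0 calls among the members at each stage in edgeR, DESeq2 and limma-trend, with 0 at an unadjusted p below 0.05 in edgeR. The share of all unigenes called was 0.143% in green buds, 0.00353% in coloured buds and 0.000887% in open flowers. The widest difference of an abundant member was that of Cluster-20417.241471 at Stage A, at −0.36 (SE 0.26), in a fit that did not pair the lobes of a flower. Its outer lobes exceeded the inner lobes of the same flower in 4 of 21 flowers at Stage A. At Stages B and C they did so in 12 and 10 of 21 flowers. The missing calls do not show that the lobes were alike.

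The enzymes around the flavonol branch give the setting. Of 240 unigenes annotated to 10 steps from phenylalanine ammonia-lyase to anthocyanidin 3-O-glucosyltransferase, 208 were tested. At Stage C against Stage B, 45 were higher and 29 lower, where 7.70% and 14.8% of all unigenes were. Flavanone 3-hydroxylase, which makes the dihydroflavonol precursor, was higher in 6 of 8 unigenes tested, and anthocyanidin 3-O-glucosyltransferase in 9 of 17, with 1 lower. Chalcone synthase, the first enzyme of the flavonoid pathway, had 4 unigenes higher and 7 lower of 21. At Stage A against Stage C, 21 of the 208 were higher and 9 lower (6.64% and 4.38% of all unigenes), the anthocyanidin 3-O-glucosyltransferases 0 and 5. For 'Jan Bos' against 'City of Haarlem', 103 were higher and 26 lower (16.0% and 17.0% of all unigenes), and for 'China Pink' against 'Delft Blue' 0 and 1 (0.315% of all unigenes in either direction). In the tube, 6 of 175, 19 of 158 and 29 of 157 pathway unigenes tested were lower than in the lobes at Stages B, C and A (1.28%, 1.39% and 2.18% of all unigenes). There, 2, 0 and 1 were higher (1.60%, 2.94% and 5.16% of all).

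Across the 63 means of cultivar, stage and partition, the unigenes most like Cluster-20417.241471 by Pearson correlation of log2(FPKM + 1) among 78859 candidates were Cluster-20417.236750 (r = 0.986), Cluster-20417.239184 (r = 0.983) and Cluster-20417.239192 (r = 0.838), all 3 annotated as anthocyanidin 3-O-glucosyltransferase. They were followed by Cluster-20417.224081 (r = 0.818), annotated as a MYB transcription factor with the Swiss-Prot name MYB6, and the unannotated Cluster-20417.170512 (r = 0.810). The first 2 share its Muscari hit, and partitions of a flower and cultivars share the libraries' composition, so the r values are a description.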

How the data were processed

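RNA of 189 perianth samples was sequenced by the authors as poly-A paired-end libraries, assembled with Trinity and clustered with CORSET, and each unigene is the longest transcript of its cluster. The authors deposited expected counts per unigene, made with RSEM and Bowtie per the submitters' processing notes (versions not given in the sources used here), and FPKM values derived from them, which use an effective length. No genome was used. The mapping-rate table was not used.

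Expected counts were rounded, summed over the 3 partitions of a flower for stage and cultivar comparisons, or kept per library within a stage for partition comparisons. The test took unigenes that reached 10 counts in 3 or more sums or libraries: 202252 over flowers and 145405, 113327 and 112719 per library at Stages B, C and A. edgeR 4.0.16 (R 4.3.3) with TMM factors, glmQLFit and glmQLFTest was fitted on all groups, with 1 mean per cultivar and stage (or partition). limma 3.58.1 (limma-trend, prior count 2), DESeq2 1.42.0, other filters, other scalings and leaving out each replicate were alternatives. Tables and figures were made with Python 3.11.15, numpy 2.4.6, pandas 2.3.3 and matplotlib 3.10.9. A contrast could not be evaluated where its SE was 0 or at least 100, which occurred with groups at 0 counts. The fitting script was tested on simulated data.

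The naming rule took, per enzyme, up to 6 members with the highest mean FPKM of at least 0.5. It added up to 3 called members with the largest change in each direction of a comparison, among those with a mean of at least 1 FPKM in a condition, and up to 5 called in 'China Pink' against 'Delft Blue'. It also took the 5 unigenes whose condition means were most like the leading glucosyltransferase member (mean of at least 1 FPKM, pseudocount 1), and the same for flavonol synthase, which had no unigene. Members outside this rule are named as well, so that all are accounted for. The members, lists and comparisons were chosen with earlier results of these data known. The partitions of a flower come from the same flower by the study's methods, and their deviations from group means correlated with a median r of 0.25 (189 pairs, 174 above 0.1). The replicate numbers of flowers in different groups share only a number.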

Additional observations from a re-analysis of the deposited data

Results flagged for a closer look

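For 8 members the course over the stages differed between cultivars by the interaction test of edgeR. The adjusted p was 9.8e-07 for Cluster-20417.217938, 1.1e-04 for Cluster-20417.165368, 2.4e-03 for Cluster-20417.208624, 2.8e-03 for Cluster-20417.208623, 5.3e-03 for Cluster-20417.172464, 5.7e-03 for Cluster-20417.245091, 6.1e-03 for Cluster-20417.228010 and 0.021 for Cluster-20417.241471. The share over all unigenes was 23.3%. Leaving out replicate 3 of each group left 3 of the members with an adjusted p below 0.05.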

How the results depend on the processing

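Most counts of called members stayed within 1.5 times of the reported ones. With DESeq2 the members called were 4 for Stage A against Stage C, 7 for Stage A against Stage B and 3 for the tube at Stage A. Without the fold threshold they were 7 for Stage A against Stage B, and 4, 4 and 3 for the tube at Stages B, C and A. The tube gave 0 at Stage C in limma-trend and 2 at Stage A without a filter. Leaving out each replicate gave 1 to 2 for Stage A against Stage C, 8 to 15 for the same contrast within cultivars, 3 to 7 for the interaction, and 0 to 1 for the tube at each stage. Of the single changes named, the rise of Cluster-20417.165368 from Stage C to Stage A in 'Gipsy Queen' reversed without replicate 2 (−0.70) and was 3.63 without replicate 3. Of 59 such calls, limma-trend kept 45, DESeq2 51, total count scaling 49 of 57, and leaving out replicates 1, 2 and 3 kept 41, 42 and 40. The cause of these losses was not tested. Losses named beside single calls do not always include those under other tools, filters or scalings. Fits without a filter kept 51 of the 59. With 2 of 3 flowers fewer data enter the fit.

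With the replicate block, which pairs flowers by number or, in partition comparisons, takes the flower as block, 5, 2 and 4 members were called for the 3 stage comparisons, 27 and 15 within cultivars, 89 over cultivar pairs, 8 for the interaction and 0, 1 and 1 for the tube, as without it. It ended 1 call, of Cluster-20417.208624 from Stage B to Stage C in 'China Pink' (3.57). The numbers of flowers in different groups did not pair them: deviations correlated with a median r of 0.0077 (630 pairs, 121 above 0.1). A fit with every library as a replicate was not run. Total count scaling, FPKM in place of normalised counts and count ratios without single Stage A flowers were chosen after seeing the data. The short unigenes, 3 flowers per group and members below 1 FPKM limit what can be detected.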

Other observations

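The unigenes whose pattern was most like that of Cluster-20417.92239, a member chosen for this comparison after its values were seen, were Cluster-20417.140785 (r = 0.977) and 4 others, over 63 means of cultivar, stage and partition. Of these others, Cluster-20417.88406 (r = 0.963) and Cluster-20417.339468 (r = 0.957) had the Swiss-Prot name UGT75C1, another glycosyltransferase of tomato. With a pseudocount of 0.1, 3 of the 5 remained. All means share the flowers that were high at Stage A, so these values are a description.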
